A study of Mus musculus with 175 samples.

Results

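Among P2- megakaryocyte-erythroid progenitors (MEPs) of the E14.5 fetal liver, cells in which the megakaryocytic transcription factor Fli1 was read were set against cells in which it was not. Of 57 P2- MEPs deposited, 1 was left out because almost all of its counted reads (99.9%) came from the ERCC spike-in RNAs, which left 56 of the 175 cells of the series. A cell with at least 1 raw Fli1 read was called Fli1-read and a cell with 0 was called Fli1-zero, which gave 15 and 41 cells. The sets were chosen by the Fli1 reads themselves, so the Fli1 values only describe the choice and Fli1 was left out of every result.

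All cells came from embryos of C57BL/6 crossed with ICR mice. The genotype label reads Runx1 P2-GFP::P2-hCD4/+, whereas the protocol label and the study's methods name the reporter P1-GFP::P2-hCD4/+, with GFP at the distal Runx1 promoter P1 and human CD4 at the proximal promoter P2. Livers of 2 litters were pooled, and single Lin- Sca1- cKit+ CD16/32low CD34- CD41- CD150+ cells without human CD4 on the surface were sorted into plates. Both sets therefore share the reporter alleles, the litters and the sort, no plate was named, and the 56 cells are 1 sample. Cells of 1 pool are not replicates, so values are given per cell or as sums over the cells of a set, and no test of the difference was made.

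MEPs give rise to red blood cells and to the platelet-forming megakaryocytes. KLF1 drives the erythroid program, while the ETS factor FLI1 drives the megakaryocytic one, and both proteins are known to oppose each other. GATA1 serves both lineages. In this study the P2- MEPs are the cells without the reporter of the proximal Runx1 promoter, and the P2+ MEPs those with it.

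Fli1 reads per Fli1-read cell were 1 at the lowest, 12 at the median and 39 at the highest, or 1.91, 29.0 and 83.5 counts per 1000000 reads on mouse genes (CPM). Of the 15 cells, 2 lay at the edge of the rule with a single read, 6 had under 10 reads and 9 had 10 or more. After every cell was thinned at random to 100000 reads, 13 still had a Fli1 read. In the P2+ MEPs, 34 of 47 cells had a Fli1 read, and the median over those was 87.9 CPM.

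The 2 sets were of like depth. Reads on mouse genes ranged from 335926 to 823603 per Fli1-read cell (median 489123) and from 295064 to 888658 per Fli1-zero cell (median 545319). At 100000 reads per cell, the median number of genes read was 5993 and 5959. The sets did differ in the sex of the embryos the cells came from, because at least 5 Xist reads were found in 12 of 15 Fli1-read and 24 of 41 Fli1-zero cells, and at least 5 reads of Y chromosome genes in 3 and 15. One Fli1-read well, with a single Fli1 read, held both. The part of sex in the differences was not tested, and results are therefore also given for the 11 and 24 cells with at least 5 Xist reads and under 5 reads of Y chromosome genes (the Xist cells), an alternative chosen after the data were seen. Cd34, the sort's exclusion marker, had no read in the Fli1-read cells and was read in 1 Fli1-zero cell.

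Genes of other blood cells were read in few cells. Of the markers of lymphoid cells, macrophages and mast cells, 9 of 11, 9 of 11 and 8 of 10 had no read, and the summed level of each list had a median of 0 CPM in both sets. The highest summed level per cell was that of the mast cell and basophil genes, 69.4 CPM in the Fli1-read and 37.5 CPM in the Fli1-zero cells, of which Hdc (histidine decarboxylase) was read in 1 cell of each set. Of 19 granulocyte and monocyte genes, 12 had no read, and their summed level was 21.3 CPM at the median (0 to 134) in the Fli1-read cells against 4.51 CPM (0 to 146) in the Fli1-zero cells. Of the 5 with at least 10 reads, 4 were positive, with a median log2 ratio of 0.97, 2 were higher by 2-fold and none was lower, beside 10.7% and 16.3% of all genes with at least 10 reads (3.36% and 5.84% of the more widely read genes used below). The higher ones were Mpo (myeloperoxidase), read in 3 and 2 cells, and Cebpa, read in 1 and 1. The 1 gene of the list among the 8582 was not past 2-fold. The part of such cells or transcripts in the differences below was not tested.

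Klf1, Gata1 and the erythroid transcription factors as a list were close to the same level whether or not Fli1 was read, while Epor had a lower pooled level in the Fli1-read cells. Klf1 was read in all 15 and all 41 cells. Its CPM ran from 254.97 through a median of 481 to 741 in the Fli1-read cells, and from 221.2 through 473 to 894.5 in the Fli1-zero cells. Every Fli1-read cell lay inside the range of the others. Over the summed reads of each set (pooled CPM), Klf1 stood at 448 against 488, a log2 ratio of -0.12 (95% interval -0.18 to -0.07). With the Xist cells, the ratio was 0.00. All intervals are for counting error alone, and since the reads carried no molecular identifiers, copies made by PCR are counted too.

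Klf1 (ENSMUSG00000054191.8, chr8:84901928-84905291, plus strand, GRCm38) marks the erythroid lineage of these cells, and its promoter is shown for that reason. The stretch, from the RefSeq table of GRCm38.p6, covers 250 bases before and 50 after the start that RefSeq gives, which lies downstream of the GENCODE start above (chr8:84901732-84902031, plus strand).
Klf1: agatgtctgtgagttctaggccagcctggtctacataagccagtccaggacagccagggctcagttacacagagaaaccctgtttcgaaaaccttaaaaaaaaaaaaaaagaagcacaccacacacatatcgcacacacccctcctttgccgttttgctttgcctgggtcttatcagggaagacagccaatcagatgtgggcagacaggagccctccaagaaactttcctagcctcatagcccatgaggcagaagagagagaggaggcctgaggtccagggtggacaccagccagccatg
It held none of the 3 motifs searched below in these exact letters.

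Of the 8582 genes read in 25% or more of the 56 cells and averaging 1 count or more per cell, 3.36% were higher by 2-fold or more in the Fli1-read cells and 5.84% were lower, and the median log2 ratio was -0.02. The genes past 2-fold tended to be read in fewer cells. They had reads in a median of 42.9% of the cells when higher and 41.1% when lower, against 76.8% over all 8582 genes, but 96 of the higher and 185 of the lower were read in 50% or more of the cells.

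Of 15 erythroid transcription factors, none differed by 2-fold or more, beside 10.7% higher and 16.3% lower of all genes with at least 10 reads. Among the 8582 genes, which held 14 of the list, the shares were 3.36% and 5.84%. The list's median log2 ratio was also -0.02, or between -0.12 and 0.13 over the alternatives tried. Gata1, the master regulator shared by both lineages, was read in every cell at a pooled 263.6 against 266.7 CPM (log2 ratio -0.02). Tal1, a partner of GATA1, had a log2 ratio of 0.24, and Lmo2, which bridges both, 0.16. The furthest apart of those read in most cells were Nfe2, a factor of globin and platelet genes, at 194 against 138 CPM (log2 ratio 0.49), and Gfi1b, a repressor needed in both lineages, at 141 against 196 CPM (-0.48). With at least 10 Fli1 reads, these ratios were 0.70 and -0.93. Sox6, read in only 2 of 15 and 4 of 41 cells, had -0.88, but -2.45 with at least 10 Fli1 reads and -3.37 in the Xist cells.

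The 12 genes of heme synthesis had a median log2 ratio of -0.02, with 4 positive and 8 negative. Alad and Cpox, enzymes of the pathway, were read in every cell, each with a log2 ratio of -0.02. Of the 11 heme genes among the 8582, only Alas1, the housekeeping form of the first enzyme, passed 2-fold, with a pooled 9.12 against 20.2 CPM, beside 5.84% lower over all 8582. Alas2, the erythroid form of the same enzyme, was not among them and went the opposite way, with 31 reads in 2 of 15 cells against 2 reads in 2 of 41 cells (log2 ratio 5.50, 3.53 to 8.61).

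Over 23 genes of the erythroid membrane and of erythroid enzymes the median log2 ratio was -0.37, with 15 negative and 8 positive, beside 48.3% positive over all 8582 genes. Epor, the receptor of erythropoietin, had 0, 122 and 312.4 CPM as lowest, median and highest in the Fli1-read cells and 3.55, 179 and 425 in the Fli1-zero cells, and of the Fli1-read cells only the one with 0 lay outside the range of the others. Its pooled level was 142 against 194 CPM, a log2 ratio of -0.45 (-0.54 to -0.35). Pklr, the red cell pyruvate kinase, had a log2 ratio of -0.52 and Rhag, a blood group protein, -0.40. In the opposite direction, Kel, another blood group protein, had 0.88 and Ermap 0.34. The list's median was -0.14 without the cell of highest CPM for each gene and -0.13 after thinning.

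Of the 20 erythroid membrane and enzyme genes among the 8582, none was higher by 2-fold and 2 were lower, among them Sptb, which encodes a protein of the red cell membrane skeleton. A count of 2 in 20 stands beside 5.84% over all genes. The pooled level of Sptb was 6.93 against 14.1 CPM, and without its cell of highest CPM it was no longer past 2-fold, with a log2 ratio of -0.68. The 7 globin genes had a median of -1.32, with 6 negative and 4 lower by 2-fold, beside 16.3% of all genes with at least 10 reads, and of the 4 among the 8582 genes 2 were lower. They had a summed level of 11.6 CPM at the median of the Fli1-read cells (highest 167) and 18.7 CPM at that of the Fli1-zero cells (highest 1201). Hbb-bs, with the highest pooled level of them, had a log2 ratio of -2.59 that was -0.05 in the Xist cells.

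**Figure D1:**
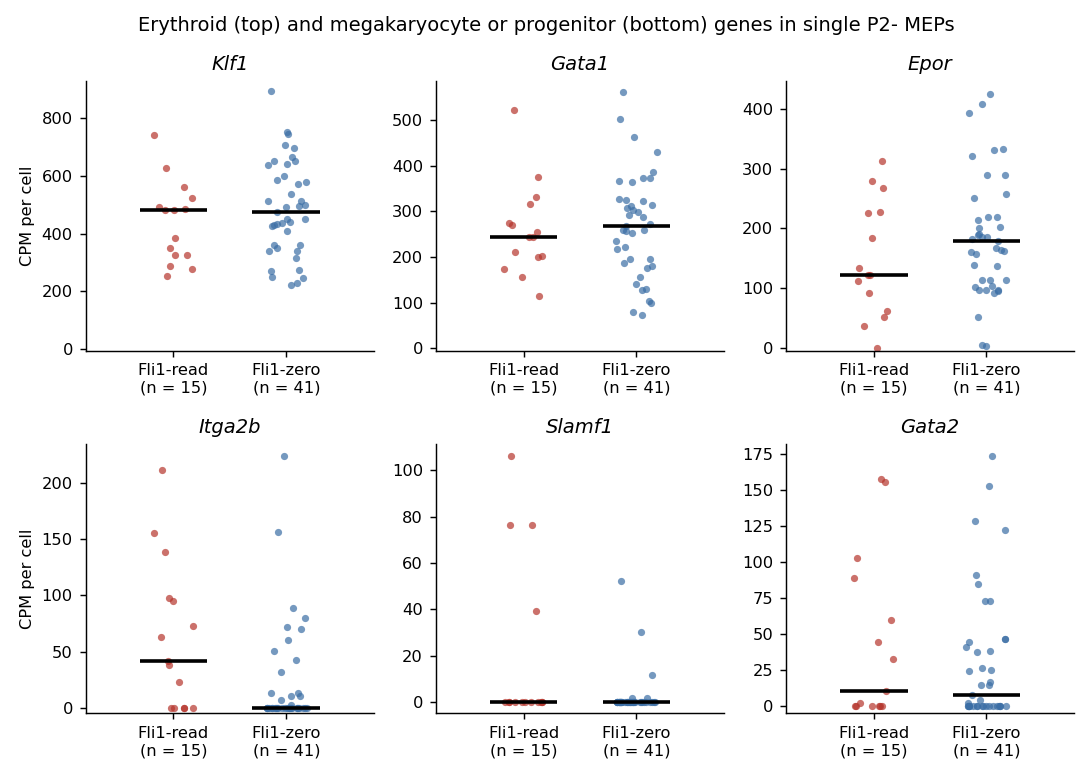
CPM in each single P2- MEP (linear y axes) for Klf1, Gata1 and Epor in the upper panels and Itga2b, Slamf1 and Gata2 in the lower, with 15 Fli1-read cells in red and 41 Fli1-zero cells in blue. Bars are medians. The upper panels overlap almost wholly, while in the lower panels the cells with reads made up 10, 4 and 9 of the 15 Fli1-read cells and 16, 5 and 23 of the 41 Fli1-zero cells.

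A few megakaryocyte-associated genes stood higher in the Fli1-read cells. Of 28 megakaryocyte and platelet genes, 11 had no read in any of the 56 cells, among them Pf4 and Ppbp, chemokines of platelet granules, Gp9 and Gp1bb, subunits of the von Willebrand factor receptor, and Itgb3, the integrin chain that pairs with the Itga2b product. Of the 14 with at least 10 reads, 6 were higher and 1 was lower by 2-fold or more, with a median log2 ratio of 0.77. The median was 0.33 with at least 10 Fli1 reads, 0.43 when the sets were redrawn by Fli1 reads after thinning, and 0.50 and 0.51 without either of 2 single Fli1-read cells. Over all 13605 genes with at least 10 reads, 10.7% were higher and 16.3% lower. Only 6 of these genes were among the 8582, and 1 of them, Itga2b, was higher by 2-fold, beside 3.36% over all 8582. The other 5 (Gp1ba, Gp5, F2r, Cd9 and Nbeal2) had log2 ratios between -0.16 and 0.55, and that of Cd9 went from 0.29 to -0.90 without 1 Fli1-read cell.

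Itga2b (ENSMUSG00000034664.13, chr11:102453297-102470122, minus strand) encodes CD41, the antigen whose absence on the surface defined the sort. Reads were found in 10 of 15 Fli1-read and 16 of 41 Fli1-zero cells. The lowest, median and highest CPM were 0, 41.2 and 211.1 in the first and 0, 0 and 223.6 in the second, so that the ranges were alike and the share of cells with reads differed. The pooled level was 60.1 against 24.6 CPM, a log2 ratio of 1.29 (1.11 to 1.47), and it was 1.57 in the Xist cells.

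Slamf1 (ENSMUSG00000015316.11, chr1:171767127-171801184, plus strand) encodes CD150, for which the cells had been sorted as positive, yet it was read in only 4 of 15 and 5 of 41 cells. The reads were 15, 50, 62 and 63 in the Fli1-read cells and 1, 1, 5, 23 and 32 in the Fli1-zero cells. The pooled level was 24.4 against 2.72 CPM, a log2 ratio of 3.17 (2.75 to 3.60), and it was 6.10 in the Xist cells. This value rests on few cells, and Slamf1 was not among the 8582 genes.

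Both Itga2b and Slamf1, a pair picked after their values were seen, had reads in 3 of 15 Fli1-read cells and in 2 of 41 Fli1-zero cells, which are small counts of cells from 1 pool.

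Over all 28 genes at 100000 reads per cell, the Fli1-read cells had reads of 5 at the median (2 to 8) and the Fli1-zero cells of 3 (0 to 7). Without thinning the medians were 5 and 4. At equal depth the medians differed by only 1 when at least 10 Fli1 reads were asked for. The summed CPM of the list ran from 137 to 525 with a median of 215.9 in the former, and from 0 to 490 with a median of 122 in the latter. The ranges overlapped over most of their length.

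Within the 15 cells the number of Fli1 reads, which the choice of cells used, gives a description only. The pooled Klf1 level was 479 CPM in the 9 cells with 10 or more Fli1 reads and 404 CPM in the 6 cells with 1 to 9. Epor went the other way, at 135 and 152 CPM. Itga2b stood at 71.7 and 43.0 CPM in the same order, read in 6 of 9 and 4 of 6 cells. Slamf1 stood at 30.2 and 15.8 CPM, read in only 3 of 9 cells and 1 of 6.

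**Figure D2:**
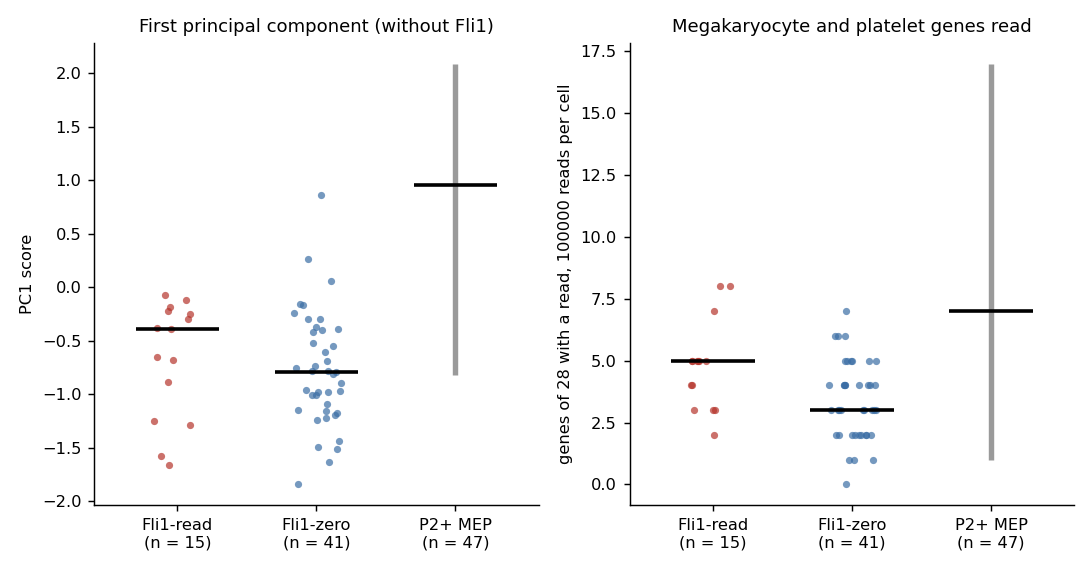
Left, score of each P2- MEP on the first principal component of 103 MEPs, computed without Fli1. Right, the number of the 28 megakaryocyte and platelet genes with a read when every cell is thinned to 100000 reads. Points are cells and bars medians, and the grey line spans the lowest to the highest of the 47 P2+ MEPs. Medians are -0.39, -0.79 and 0.95 on the left and 5, 3 and 7 on the right.

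The Fli1-read cells were then set beside the P2+ MEPs. The first principal component of the 103 MEPs, taken over the 500 most variable genes without Fli1, held 7.82% of the variance. Its low end was led by Pklr, Rhag and Ermap and its high end by Celf2 and Zyx. The Fli1-read cells had a median score of -0.39 (lowest -1.66, highest -0.07) and the Fli1-zero cells one of -0.79 (-1.84 to 0.86), against 0.95 in the P2+ MEPs (-0.82 to 2.09). The difference of 0.40 between both P2- medians was 0.26 when 1000 or all genes with a mean count of 1 or more were used, and 0.27 without any 1 of 8 single Fli1-read cells. Above the lowest P2+ score lay 10 of 15 Fli1-read and 22 of 41 Fli1-zero cells. All 15 Fli1-read cells lay inside the range of the Fli1-zero cells, and none of the 56 reached the P2+ median.

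Slamf1 and Itga2b stood between the Fli1-zero cells and the P2+ MEPs. Slamf1 was at 97.2 CPM in the P2+ MEPs against 24.4 in the Fli1-read cells, and Itga2b at 103 against 60.1. Plek, a platelet kinase substrate, was at 91.1 CPM in the P2+ MEPs and was read in only 2 cells of each P2- set. Thbs1 (thrombospondin), at 109 CPM in the P2+ MEPs, had no read in any P2- MEP. Klf1 was at 243.5 CPM in the P2+ MEPs, below both P2- sets.

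When the P2+ MEPs were split by the same rule, into 34 cells with a Fli1 read and 13 without, the log2 ratios of Itga2b and Slamf1 were 1.46 and 0.55. Klf1 had -0.93 there, Gata1 -0.60 and Epor -0.64. Of these 5 genes, Klf1 and Gata1 were the ones that stood nearly level in the P2- MEPs. Whether the split acted differently in the 2 fractions was not tested.

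**Figure D3:**
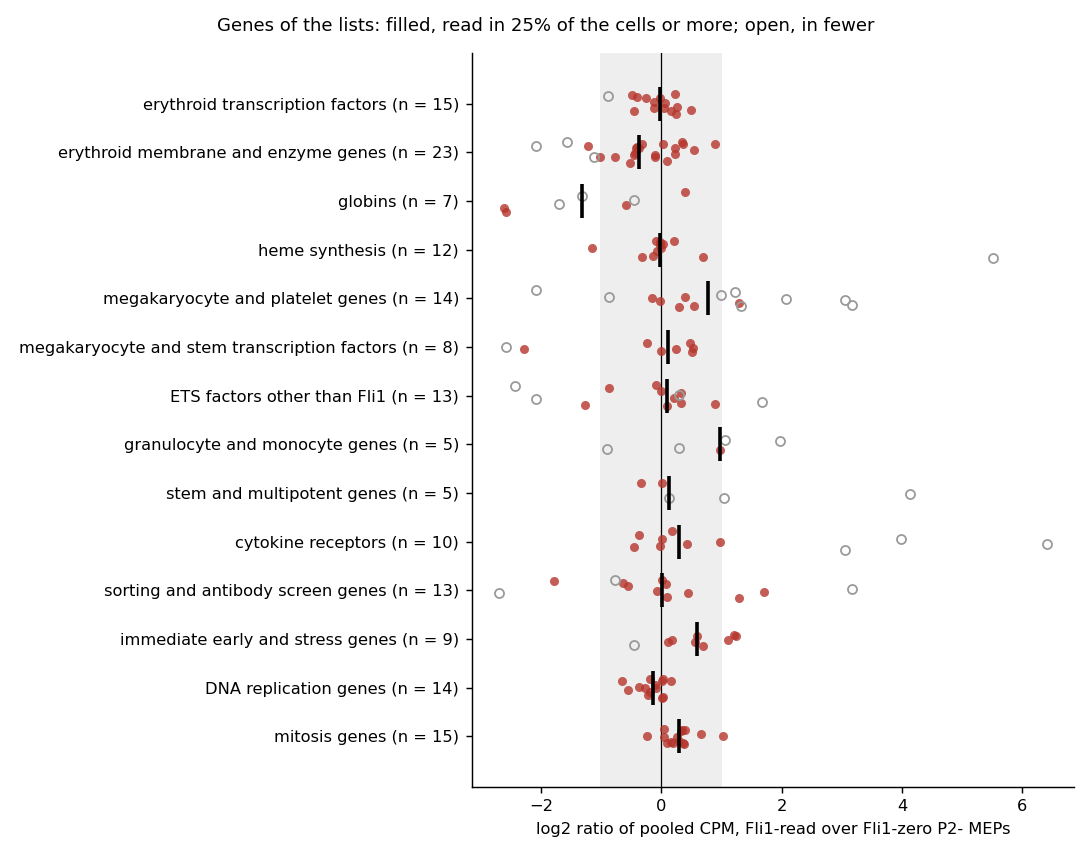
Log2 ratio of pooled CPM (x axis, Fli1-read over Fli1-zero) for the genes of 14 lists with at least 5 ratios. Filled points are genes read in at least 25% of the 56 cells, open points genes read in fewer, black bars the list medians, and the grey band marks less than 2-fold. The erythroid transcription factor, replication and mitosis lists lie almost wholly inside the band. Outside it, the points of the megakaryocyte, cytokine receptor and stem lists are mostly open ones, with Itga2b and Meis1 filled.

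The other transcription factors of megakaryocytes and stem cells did not go one way. Of the 7 among the 8582 genes, none was higher by 2-fold and 1 was lower, beside 3.36% and 5.84% over all 8582. This was Meis1, at 2.05 against 10.0 CPM with reads in 3 of 15 and 11 of 41 cells. Gata2, a stem and progenitor factor, had a log2 ratio of 0.53, Mef2c 0.48 and Hhex 0.52. Runx1, whose proximal promoter drove the sorting reporter, was at 20.5 against 24.3 CPM (-0.24) with reads in 10 of 15 and 27 of 41 cells. Erg, the ETS factor closest to Fli1, had no read in either set.

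Among 21 ETS factors other than Fli1, 7 had no read and 9 were among the 8582 genes. None of the 9 was higher by 2-fold and 1 was lower, beside 3.36% and 5.84% over all 8582. This was Erf, a repressor, at 8.47 against 20.3 CPM. Elf4 came next to 2-fold, at 62.4 against 33.7 CPM (0.89), and Gabpa stood at 25.2 against 46.0 CPM (-0.87). Spi1, which encodes the myeloid factor PU.1, was read in 2 of 15 and 8 of 41 cells with a log2 ratio of 0.29 (-0.17 to 0.74), which was -0.67 without 1 Fli1-read cell and 1.01 without the cell of highest CPM. The list's median was 0.10, but it was -0.28 without 1 Fli1-read cell and -0.02 without another, -0.06 with equal weight for every cell, -0.07 after thinning and -0.03 in the Xist cells, so that its sign was not stable.

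Of the surface proteins used or screened for sorting, 10 genes were among the 8582, with 2 higher by 2-fold, Itga2b and Cd55, and 1 lower, Eng, beside 3.36% and 5.84% over all 8582. Cd55, which shields cells from complement, was read in 12 of 15 and 17 of 41 cells. Its lowest, median and highest CPM were 0, 57.2 and 193 in the Fli1-read cells and 0, 0 and 168 in the Fli1-zero cells. The pooled 64.3 against 19.7 CPM gave a log2 ratio of 1.71 (1.52 to 1.89), and it was 2.41 in the Xist cells. The P2+ MEPs, at 18.3 CPM, were near the Fli1-zero cells for this gene.

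Eng (endoglin, a TGF-beta co-receptor) was at 5.01 against 17.3 CPM (log2 ratio -1.79, -2.30 to -1.31), with reads in 5 of 15 and 18 of 41 cells. The P2+ MEPs had more of it, 34.97 CPM. Cd48 and Pecam1 (CD31), both among the candidate surface markers of the study, which went on to sort by CD31, had log2 ratios of -0.56 and -0.63, and their P2+ MEP levels of 165 and 17.4 CPM were above both P2- sets. For these 3 genes the Fli1-read cells were therefore further from the P2+ MEPs than the Fli1-zero cells were. Kit, the stem cell factor receptor on which all cells were gated, was level at 294.03 against 293.02 CPM.

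Of 9 immediate early and stress genes with at least 10 reads, 8 had a positive log2 ratio. Of 8 among the 8582 genes, 3 were higher by 2-fold and none was lower, beside 3.36% and 5.84% over all. Fos, a subunit of the AP-1 factor, was read in 14 of 15 and 28 of 41 cells at a pooled 212.8 against 90.4 CPM (log2 ratio 1.23, 1.14 to 1.33). Jun, its partner, had 1.11, and Dusp1, a phosphatase of MAP kinases, 1.20, and without 1 Fli1-read cell they were as low as 0.77 and 0.89. Egr1 went from a log2 ratio of 0.59 to -0.81 when only cells with at least 10 Fli1 reads were kept in the Fli1-read set.

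Cell cycle genes differed little. None of 14 DNA replication genes passed 2-fold (median log2 ratio -0.14), with Mcm7, a subunit of the replicative helicase, at -0.56 and Ccne1 (cyclin E1) at -0.65. Of 15 mitosis genes, 14 were positive with a median of 0.30, beside 48.3% positive over all 8582. The 1 that passed 2-fold, beside 3.36% over all, was Cenpf, a kinetochore protein, at 191 against 94.0 CPM (1.02, and as low as 0.84 without 1 Fli1-read cell). In the Xist cells, the mitosis median was 0.08.

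**Figure D4:**
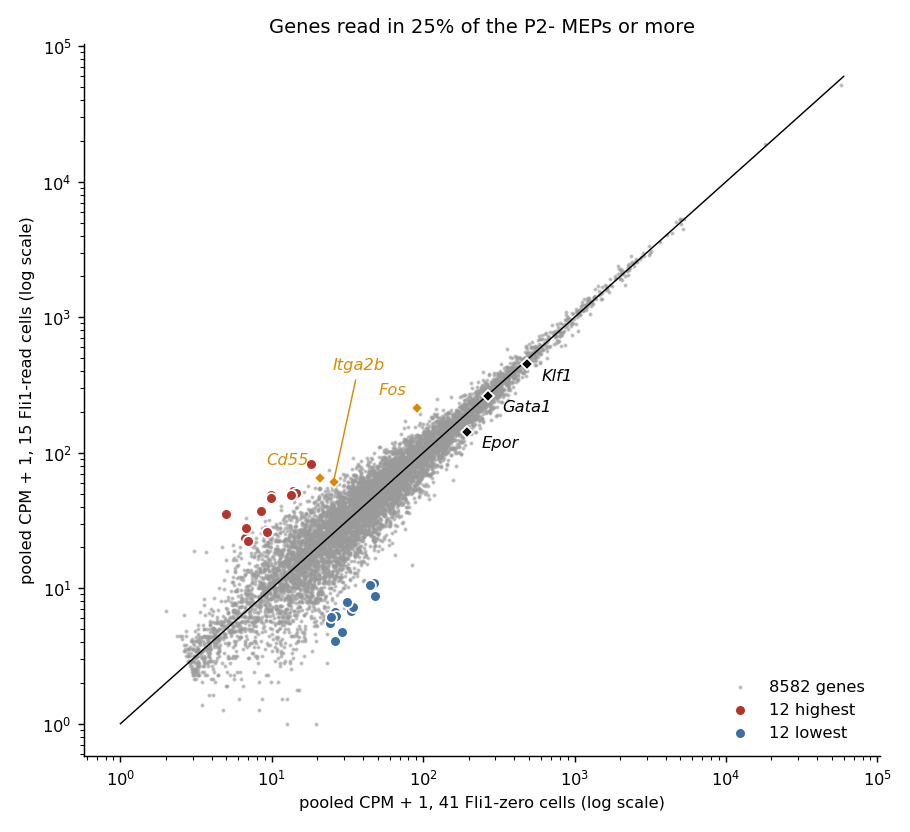
Pooled CPM + 1 of the 8582 genes in the 41 Fli1-zero cells (x) and the 15 Fli1-read cells (y), both log scales, with the line of equality. Red and blue points are the 12 highest and 12 lowest genes by the naming rule, black diamonds Klf1, Gata1 and Epor, and orange diamonds Itga2b, Cd55 and Fos. The genes furthest from the line lie between about 1 and 100 CPM.

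Among genes of 20 CPM or more in the higher set with a read in 50% or more of its cells, the 12 highest and 12 lowest were on no lineage list. They were named by the smallest of 3 log2 ratios (pooled, with equal weight for each cell, and without the cell of highest CPM), so they are extremes by choice, and they passed the filter through the set in which they were higher. The log2 ratios ran from 1.60 to 3.11 and from -3.03 to -2.13. The filter asked for a read in at least 8 of 15 Fli1-read cells of the 12 highest, and these were read in 8 to 23 of 41 Fli1-zero cells.

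Plcb3, a phospholipase that acts after G protein-coupled receptors, led the higher genes. It was read in 10 of 15 and 10 of 41 cells, at 34.4 against 3.99 CPM (log2 ratio 3.11). Ncoa2, a coactivator of nuclear receptors, was at 47.9 against 8.94 CPM (2.42), Neu1, a lysosomal sialidase, at 36.0 against 7.54 (2.25) and Baz2b, a chromatin reader, at 45.5 against 8.85 (2.36). Sgol2a, a protector of centromeric cohesin, and Peli1, a ubiquitin ligase of immune signalling, had 1.86 and 1.60. The rest were Krt10 (a keratin), Zfp292 (a zinc finger protein), Bet1l (a SNARE of the Golgi), Tigd2, Ankrd16 and Tbc1d24.

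The lower end held Ssfa2 at 3.08 against 25.2 CPM (-3.03), read in 5 of 15 and 23 of 41 cells, and 2 genes of mitochondrial translation, Trmu, a modifier of mitochondrial tRNA (-2.59), and Ears2, a mitochondrial tRNA synthetase (-2.20). Brca1, of DNA double-strand break repair, was at 9.89 against 46.4 CPM (-2.23). Vps18 (-2.49) serves lysosomal trafficking, Oma1 (-2.38) is a protease of the inner mitochondrial membrane, Nmnat1 (-2.13) makes NAD and Sh2b1 (-2.18) is an adaptor of receptor signalling. The rest were Ubox5 (a ubiquitin ligase), Abhd17b (a depalmitoylating enzyme), Dennd6b and AK010878.

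These genes were also looked up in the P2+ MEPs. Of the 12 highest, 4 had a positive and 8 a negative log2 ratio when the P2+ MEPs were split by Fli1 reads. Of the 12 lowest, 4 were negative and 8 positive there. The same counts over all genes were not made, so these have no background beside them. Ncoa2 (2.03), Ankrd16 (2.42) and Plcb3 (0.89) kept their sign, while Neu1 (-1.19) and Bet1l (-1.41) took the opposite one. So did Trmu (8.12, read in 12 of 34 and 1 of 13 cells) and Dennd6b (2.55) of the lowest.

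For 19 of the 24 genes a promoter was found in the RefSeq table. Some of these stretches, such as those of Plcb3 and Baz2b, lie inside the gene as GENCODE gives it. Both strands were searched for AGATAA, a core that GATA factors bind, CCGGAAGT, a core that ETS factors such as FLI1 bind, and CCACACCC, a core that KLF1 binds. Of 32851 promoters of the same length, 11.2%, 3.89% and 3.56% held them. AGATAA was found in 2 of 9 promoters of higher genes (Krt10 and Plcb3) and in 0 of 10 of lower genes, CCGGAAGT in 0 of 9 and in 3 of 10 (Nmnat1, Trmu and Ubox5), and CCACACCC in 1 of 9 (Zfp292) and 0 of 10. A match describes the letters and is no proof of binding.

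The promoters of Plcb3 (chr19:6969765-6970064, minus strand) and Trmu (chr15:85879077-85879376, plus strand) are shown as the leading higher and lower genes for which one was found. The start that RefSeq gives for Plcb3 lies downstream of the GENCODE start, inside the GENCODE gene (chr19:6952325-6976470). Each reads 5′ to 3′ along its gene, with motif letters in capitals.
Plcb3: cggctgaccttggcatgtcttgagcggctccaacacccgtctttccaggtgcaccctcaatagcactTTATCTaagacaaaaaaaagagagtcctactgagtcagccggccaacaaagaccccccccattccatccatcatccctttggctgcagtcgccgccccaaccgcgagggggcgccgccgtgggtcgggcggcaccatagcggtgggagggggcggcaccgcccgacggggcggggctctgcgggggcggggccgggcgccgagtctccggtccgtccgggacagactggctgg
Trmu: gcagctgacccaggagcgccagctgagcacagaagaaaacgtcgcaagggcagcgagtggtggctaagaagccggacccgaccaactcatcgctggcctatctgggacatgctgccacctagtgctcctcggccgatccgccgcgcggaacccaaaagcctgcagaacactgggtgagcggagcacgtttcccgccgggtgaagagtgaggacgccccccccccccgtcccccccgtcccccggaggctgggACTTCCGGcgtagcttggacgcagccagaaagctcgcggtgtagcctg
The capitals mark AGATAA on the opposite strand in Plcb3 and CCGGAAGT on the opposite strand in Trmu.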

How the data were processed

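Single cells were sequenced by Smart-Seq2, without molecular identifiers. Reads were trimmed by the authors (Trimmomatic 0.36), aligned to GRCm38 plus the spike-in sequences (STAR 2.4.2a) and assigned to gene exons without using strand (HTSeq 0.6.1p1). The deposited values are raw counts of 49585 mouse and 92 ERCC features. The deposited unmapped share is a percent of each cell's reads. The 5 tally lines that name no gene were left out of every total. In the 56 cells, 23.3% of uniquely mapped reads matched more than 1 gene and 6.87% lay outside annotated exons, so genes with near-identical copies (globins) or overlapping partners are uncertain. Jun shares 7.28% of its exon bases with Junos.

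Cells were kept with at least 250000 reads, at most 25% unmapped reads and at most 15% ERCC reads. Total reads per kept cell were 657226 to 1746924 (Fli1-read) and 571806 to 1887301 (Fli1-zero). Counts were summed over a set and divided by its summed mouse reads (7788366 and 22817896) to give CPM. A set without reads was put at 3 reads over the set (0.385 and 0.131 CPM). Log2 ratios have exact conditional binomial intervals (SciPy 1.17.1). The study's own test took cells as replicates and was not repeated. Genes were named as list members or as the 12 highest and 12 lowest by the ratio nearest 0 of the 3 given in the text, among genes of 20 CPM or more with a read in 50% or more of the higher set. The lists hold 257 genes in 20 lists, and 24 of 25 erythroid membrane and enzyme genes were measured. The members and lists were chosen with earlier results of these data known. DESeq2 1.42.0 size factors, thinning, filters and cell sets were tried as alternatives. The scripts were tested on simulated data. Coordinates are from GENCODE M21 on GRCm38, and promoters from RefSeq. Some list genes are not reported here.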

Additional observations from a re-analysis of the deposited data

How the results depend on the processing

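All cells are 1 pool, so no alternative measures the spread between embryos. Genes higher and lower by 2-fold numbered 466 and 910 with at least 10 Fli1 reads, 1461 and 2213 over genes with at least 10 summed reads, and 96 and 185 over genes read in at least 50% of the cells. With the Xist cells, chosen after the data were seen, 525 were higher and 749 lower. Of the higher genes, 46.5% kept 2-fold without their cell of highest CPM and 29.5% whichever Fli1-read cell was left out, and of the lower genes 67.1% and 74.3%. No Fli1-zero cell was left out in this way, although the lower genes have their higher level in those cells. The 29.5% and 74.3% therefore cannot be compared as measures of stability. With at least 10 Fli1 reads the median log2 ratio of the erythroid membrane and enzyme genes was -0.52 and that of heme synthesis -0.17. The mitosis median was 0.078 with the Xist cells and between 0.12 and 0.37 leaving out each Fli1-read cell in turn. The megakaryocyte and platelet median was between 0.50 and 0.90 in those sets, 0.33 with at least 10 Fli1 reads and 0.995 after thinning. Klf1 stood at -0.19 when the sets were redrawn by Fli1 reads after thinning, at -0.025 with at least 10 Fli1 reads and at 0.0013 with the Xist cells. It lay between -0.21 and -0.079 leaving out each Fli1-read cell in turn. The causes were not tested. Of 3599 values of 150 single genes, 3365 kept their sign, but most of these alternatives left out only 1 Fli1-read cell. Car1 went from 0.36 to -0.67 without its highest cell. Depth limits genes with few reads: a gene absent from a set can still lie below 0.385 or 0.131 CPM. No paired analysis was possible because the labels number single cells of 1 pool and pair none of them.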

Other observations

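Globin reads were few in most cells, with a median summed level of 11.6 CPM in the Fli1-read and 18.7 CPM in the Fli1-zero cells. Every Fli1-read cell had some, at 1.71 CPM or more. Hbb-bs, an adult beta globin, was read in 6 of 15 Fli1-read and 20 of 41 Fli1-zero cells, at a pooled 13.9 against 83.2 CPM (log2 ratio -2.59). In the Xist cells the ratio was -0.05. Hbb-bt, the paired adult beta globin gene, had 0.39, which was -0.56 without 1 Fli1-read cell. Albumin (Alb), the main hepatocyte protein, was read in 6 of 41 Fli1-zero cells at a pooled 6.00 CPM and in 0 of 15 Fli1-read cells, while Afp was read in 4 and 1.

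Of 10 cytokine receptor genes with at least 10 reads, 3 were higher by 2-fold and none was lower, beside 10.7% and 16.3% of all genes with as many reads. Among them, Il6st, the signalling chain of the interleukin 6 receptor family, had reads in 4 of 15 and 1 of 41 cells, at 11.2 against 0.13 CPM. Il3ra had reads in 3 and 3 cells, at 5.52 against 0.35 CPM. Neither of the pair was read in 25% of the cells. Of the 7 receptor genes that were, none differed by 2-fold, and Ifngr1, an interferon gamma receptor chain, was at 189 against 167 CPM.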
